A study of Rattus norvegicus with 87 samples.

Results

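Rows of 2 alpha globins, 2 beta globins and Alas2 were followed through 81 lateral habenula (LHb) libraries, as 5 of the 17512 genes in the table. They were chosen by their identifiers, ENSRNOG00000047321 and ENSRNOG00000029886 for the alpha globins, ENSRNOG00000047098 and ENSRNOG00000058105 for the beta globins and ENSRNOG00000000167 for Alas2, and all 5 were present. Each library was polyA RNA from the bilateral LHb of 1 Heterogeneous Stock rat, an outbred line descended from several inbred founder strains. The rats were adults, group housed, and had received no behavioral test and no drug, so the labels give only sex and rat batch as groups. There were 41 males and 40 females, and batches 2, 3, 4, 5 and 6 held 15, 22, 27, 1 and 16 rats. Of 87 labelled samples the authors had removed 6. Rats are named by a number that follows the order of the records within a sex and carries no other meaning.

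Hemoglobin, the oxygen carrier of red blood cells, is built from alpha and beta globin chains with a heme group in each. Its messenger RNA is among the most abundant in young red cells and persists in reticulocytes after the nucleus is lost. Alas2 is the erythroid form of aminolevulinate synthase, the enzyme that opens heme synthesis. In brain tissue these transcripts are commonly read as blood left in the vessels, although globin transcripts have also been described in neurons and glia. In bulk RNA, fewer cells of a type and less RNA per cell cannot be told apart. Whether the rats were perfused is not given in the sources used here. Markers of the habenula, of vessels and of other blood cells could not be matched to the identifiers, so the tissue label was not checked against them.

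Promoter sequences of these genes are shown because they carry the short elements through which red cell genes are read, and because they show how alike the copies are. They are the 140 bases before the annotated start, from RefSeq on GRCr8. Capitals mark matches on either strand to TATAAA (the TATA box), CCAAT (the CCAAT box), CCACCC (a form of the CACCC box) and AGATAA (the GATA motif). The sequences lie at chr10:15842581-15842720 for Hba-a1, chr10:15829139-15829278 for Hba-a2, chr1:167663722-167663861 for Hbb, chr1:167656964-167657103 for Hbb-b2, all 4 on the minus strand, and chrX:22895310-22895449 for Alas2 on the plus strand.
Hba-a1: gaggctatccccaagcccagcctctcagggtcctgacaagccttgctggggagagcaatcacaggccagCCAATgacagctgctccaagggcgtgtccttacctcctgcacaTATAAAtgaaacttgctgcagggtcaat
Hba-a2: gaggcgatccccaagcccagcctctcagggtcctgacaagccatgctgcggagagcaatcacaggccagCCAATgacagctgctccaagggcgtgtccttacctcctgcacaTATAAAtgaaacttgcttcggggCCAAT
Hbb: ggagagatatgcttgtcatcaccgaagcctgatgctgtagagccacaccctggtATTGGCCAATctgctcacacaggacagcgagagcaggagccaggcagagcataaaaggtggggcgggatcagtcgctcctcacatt
Hbb-b2: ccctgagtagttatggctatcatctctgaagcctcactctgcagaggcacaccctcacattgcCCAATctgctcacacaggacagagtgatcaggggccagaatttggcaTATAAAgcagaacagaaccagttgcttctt
Alas2: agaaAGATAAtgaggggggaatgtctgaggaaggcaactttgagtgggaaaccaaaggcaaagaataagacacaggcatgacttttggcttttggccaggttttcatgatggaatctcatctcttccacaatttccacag

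Hba-a1 and Hba-a2 were identical at 241 of 250 bases before the start (96.4%), while Hbb and Hbb-b2 shared 61.3% of aligned positions. Hbb-b2 and Hbbl1, another beta globin copy, shared 98.4%. RefSeq listed 3 alpha and 5 beta globin genes here, against 2 rows of each kind followed in this report. Whether the table holds further globin rows is not known, since its identifiers could not be matched to names. Which RefSeq copy each globin row stands for was not resolved, and the way in which reads from near-identical copies were divided among rows is uncertain for all 4 globin rows. Over the whole 250 bases before the start, TATAAA was found in 7 of the 9 globin and Alas2 promoters, against 12.9% of 33469 rat promoters. CCAAT was found in 8 of the 9, against 34% of all promoters. CCACCC was found in 4 of the 9, all beta globins, against 26.1%, and AGATAA in the Alas2 promoter only, against 10.3%. In Hbb-b2 the CCACCC match lies at bases -143 to -138 and so before the stretch printed. A missing match says only that these letters are not in the window. The shorter CACCC stands in lower case in the printed stretches of Hbb and Hbb-b2 and was not counted.

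All 5 genes were detected in every rat. Values are log2(normalized count + 1), where the normalized count is the estimated read count of the gene after upper quartile adjustment; they are not divided by transcript length, so levels are compared between rats and not between genes. The alpha globin ENSRNOG00000029886 was at 10.09 in the lowest rat, 11.94 in the median rat and 14.56 in the highest (mean 11.95 ± 0.79 SD, n = 81). These log2 levels correspond to 1087, 3922 and 24123 normalized counts, a 22.2-fold range. The alpha globin ENSRNOG00000047321 ran from 8.55 through a median of 10.77 to 13.45 (10.73 ± 0.83). The same rats stood at both ends for both genes.

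The beta globin ENSRNOG00000047098 was at 6.73, 9.0 and 10.74 in the lowest, median and highest rat (8.98 ± 0.80), a 16.3-fold range of normalized counts from 105 upward. The beta globin ENSRNOG00000058105 had the widest range of the 5 genes, at 8.25, 10.78 and 14.25 (10.88 ± 1.06), or 304 to 19540 normalized counts, a 64.3-fold range. The 2 beta globin rows differed in the rat that stood highest, female rat 6 of batch 3 for ENSRNOG00000047098 and male rat 35 of batch 4 for ENSRNOG00000058105. Alas2 was far lower in counts, at 2.81, 5.25 and 7.14 (5.17 ± 0.73), with 6 to 140 normalized counts. The 4 globin rows followed here together held 0.0107% of all normalized counts in the lowest rat, 0.0452% in the median rat and 0.302% in the highest.

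**Figure D1:**
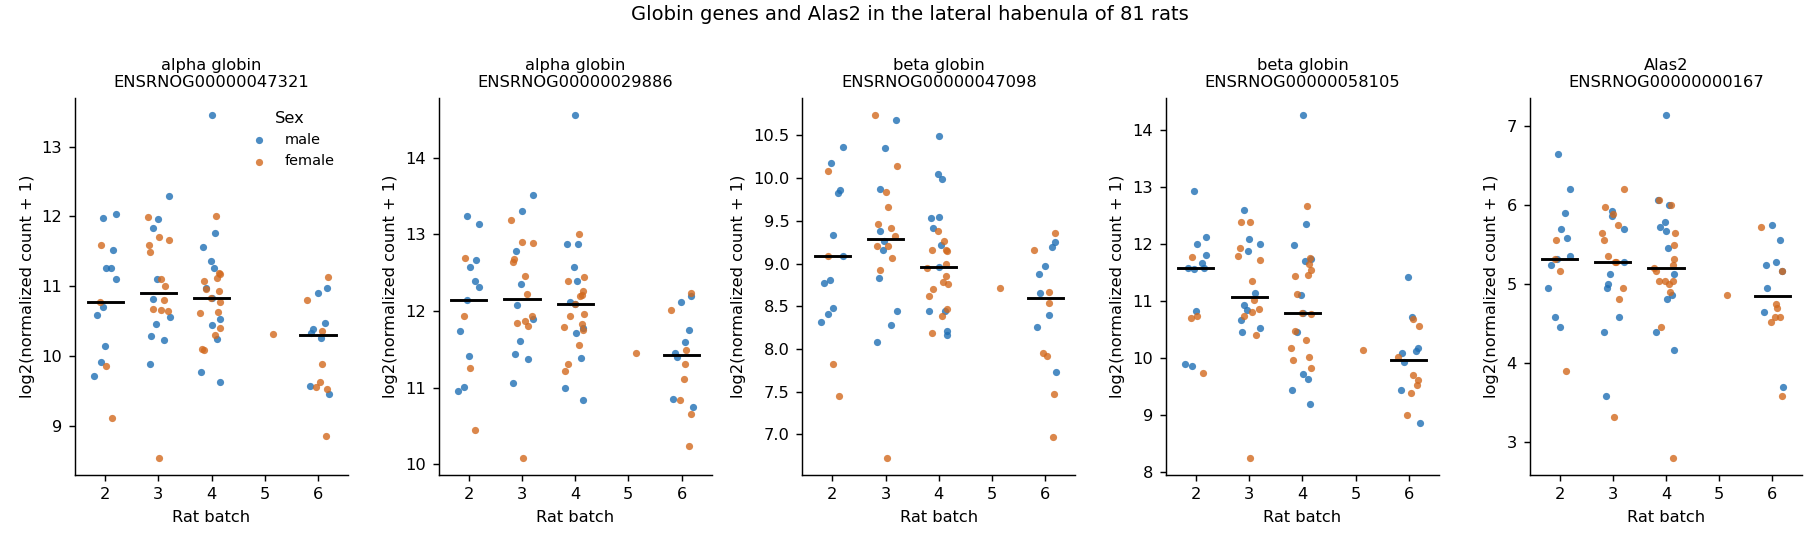
Level of each gene, as log2(normalized count + 1) on the y axis with its own scale per panel, by rat batch on the x axis; each point is 1 rat, colored by sex, and the black line is the median of the batch. In all 4 globin panels the median of batch 6 lies below those of batches 2, 3 and 4, and 1 male of batch 4 stands highest in the panels of both alpha globins, the beta globin ENSRNOG00000058105 and Alas2.

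Single rats set the extremes. Male rat 35 of batch 4 had the highest level of both alpha globins, of the beta globin ENSRNOG00000058105 and of Alas2. Its alpha globin ENSRNOG00000029886 was at 14.56, with the next rat, male rat 26 of batch 3, at 13.52. Female rat 9 of batch 3 had the lowest level of all 4 globins, with 10.09 for ENSRNOG00000029886, and the second lowest Alas2, at 3.32. Of the 10 rats highest in each globin, 5 were the same in all 4, and 4 of those were also among the 10 highest in Alas2. At the low end, 6 rats were among the 10 lowest in all 4 globins and 4 in all 5 genes.

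The spread between rats was far above counting error for the globins. After sex and batch were removed, the residual SD was 0.79 for ENSRNOG00000047321, 0.75 for ENSRNOG00000029886, 0.75 for ENSRNOG00000047098, 0.97 for ENSRNOG00000058105 and 0.73 for Alas2 on the log2 scale. Among genes of like level, within 0.5 log2 units of a gene's own mean, the globins lay at the 99.8th, 99.9th, 99.2nd and 99.9th percentile of residual SD in that order. Alas2 lay at the 84.4th percentile, and genes of its level had a median residual SD of 0.51. In the 69 libraries whose depth could be recovered, Poisson counting error came to 0.0244 (log2 SD) for ENSRNOG00000029886 and 0.0689 for ENSRNOG00000047098. Alas2, with a median of 37.4 reads, had a counting error of 0.262, which is 13.1% of its residual variance against at most 0.836% for a globin.

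The globins rose and fell together across rats. The alpha globins had Pearson's r = 0.990 and Spearman's rho = 0.986 (n = 81). Rows of near-identical copies may share reads, and the part of this in r was not tested. Each alpha globin with the beta globin ENSRNOG00000047098 gave r = 0.91, and with ENSRNOG00000058105 r = 0.88. The beta globins were less alike, with r = 0.718 and rho = 0.705. A rat with much of 1 globin therefore had much of the others, least closely so for the beta globins. All 10 pairs of the 5 genes were tested, and each had a permutation p of 1e-05 before and after Benjamini-Hochberg adjustment, the smallest that 100000 permutations can give. With the 2 rats farthest from the median left out, r between globins was 0.685 to 0.988.

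Alas2 also rose and fell with the globins. Its r was 0.743 with ENSRNOG00000029886, 0.713 with ENSRNOG00000047321, 0.698 with ENSRNOG00000047098 and 0.641 with ENSRNOG00000058105, and the matching rho values were 0.771, 0.731, 0.734 and 0.641. Within the 4 batches that could be tested, r of Alas2 with a globin was 0.850 to 0.919 for batch 2, 0.686 to 0.776 for batch 3, 0.466 to 0.610 for batch 4 and 0.702 to 0.785 for batch 6. All of these within-batch values passed an adjusted permutation p of 0.05, as did every pair of globins within each batch, where r was 0.582 to 0.993. Female rat 3 of batch 4 stood apart: its Alas2 was the lowest of all rats, at 2.81, while its alpha globin ENSRNOG00000029886 was at 12.26, above the median. Its Alas2 minus alpha globin difference was -9.45, with the next rat at -8.23 and the median at -6.67.

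**Figure D2:**
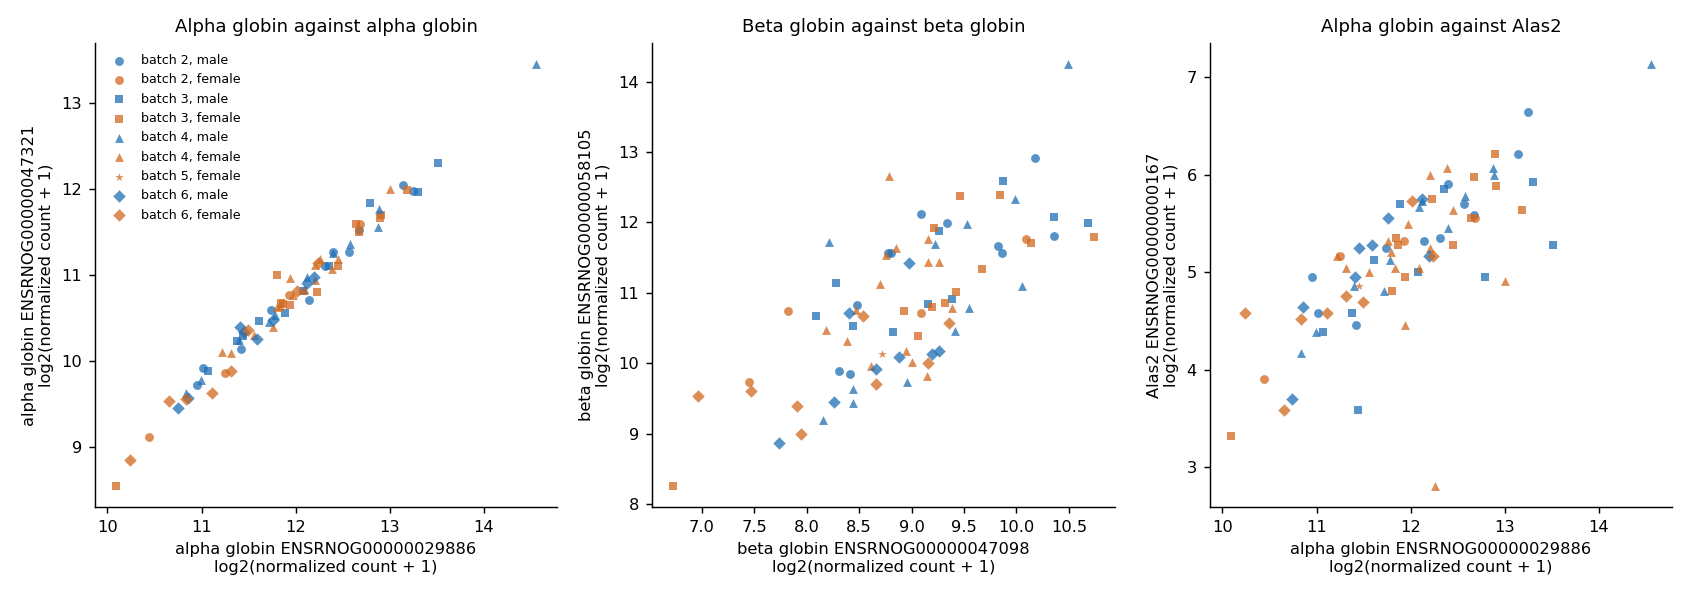
Each panel plots 1 gene against another, both as log2(normalized count + 1), with 1 point per rat; color gives sex and shape gives rat batch. The alpha globins fall on a narrow line (r = 0.990), the beta globins scatter more widely (r = 0.718), and Alas2 follows the alpha globin more loosely (r = 0.743), with 1 female of batch 4 far below the rest.

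Ratios within a rat do not depend on how libraries were scaled. The alpha globins kept a nearly fixed ratio: ENSRNOG00000029886 minus ENSRNOG00000047321 was 1.21 ± 0.12 (SD, n = 81) on the log2 scale, from 0.80 to 1.54, a 1.67-fold range. The beta globins did not: ENSRNOG00000058105 minus ENSRNOG00000047098 was 1.90 ± 0.74, from 0.68 to 3.88, a 9.20-fold range. Against the alpha globin ENSRNOG00000029886, the beta globin ENSRNOG00000058105 varied with an SD of 0.52 and ENSRNOG00000047098 with an SD of 0.34. How reads from near-identical copies were divided among the globin rows is uncertain, and its part in these ratios was not tested.

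Over all 81 rats the beta globin ratio was spread widely, with 6, 23, 17, 15 and 16 rats in successive steps of 0.5 from 0.5 to 3, 1 rat from 3 to 3.5 and 3 rats above. The widest empty stretch, from 3.03 to 3.52, set those 3 rats apart. Other empty stretches appeared when rats were taken by batch or by column run, and they were picked out after the values were seen. The widest in batches 2, 3, 4 and 6 ran from 1.85 to 2.28, 2.08 to 2.55, 2.79 to 3.52 and 1.47 to 2.14. The table's columns run through the rat identifiers in alphabetical order 3 times, and these column runs may mark how the libraries were grouped, which the labels do not say. Column runs 1 and 2 were cut at their widest empty stretch and run 3 at its 2 widest, so the sets are apart by construction. In column run 1, 11 rats lay between 1.44 and 1.85 and the other 11 between 2.28 and 3.03. In column run 2, 8 rats lay between 1.33 and 1.73 and 4 between 2.55 and 2.86. In column run 3, 26 rats lay between 0.68 and 1.47, 18 between 1.93 and 2.79, and 3 between 3.52 and 3.88. The empty stretches differed between runs, and the lower set of run 1 fills the one from 1.47 to 1.93 in run 3. The sexes were mixed in every set, with 5 males and 6 females in the lower and 8 and 3 in the higher set of run 1, and 4 and 4, then 2 and 2, in those of run 2. In run 3 there were 14 males and 12 females, 6 and 12, and 2 and 1 from the lowest set up, and the 3 rats at the top were all of batch 4. Since the sets are defined by the ratio itself, no correlation was computed within them.

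**Figure D3:**
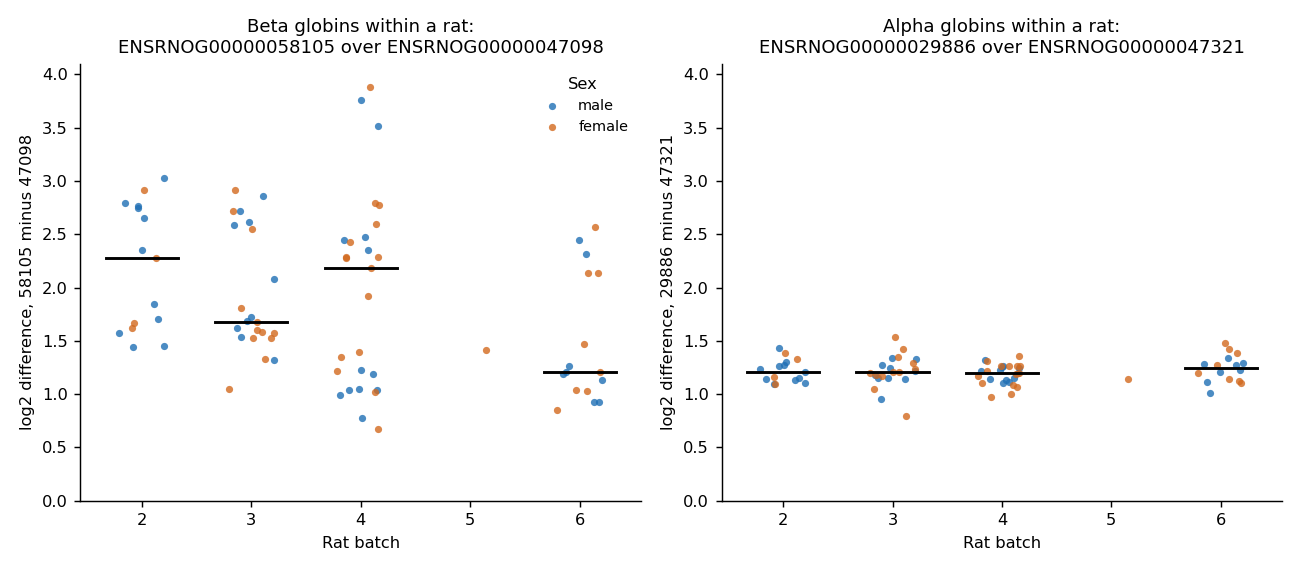
Log2 difference between the beta globins (left) and between the alpha globins (right) within each rat, on the same y scale, by rat batch; points are rats colored by sex and black lines are batch medians. The beta globin ratio spans 0.68 to 3.88 with empty stretches inside batches, while the alpha globin ratio stays between 0.80 and 1.54.

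No within-rat ratio passed the test for sex, and 1 passed for batch. Batch explained 17.2% of the variance of ENSRNOG00000058105 minus ENSRNOG00000029886 (permutation p = 0.00252, adjusted over 8 tests p = 0.0202). The means of batches 2, 3, 4 and 6 were -0.75 ± 0.37, -0.97 ± 0.45, -1.11 ± 0.56 and -1.43 ± 0.46 (SD), and the ranges of the batches overlapped. The call was lost when batches were permuted within column runs (adjusted p = 0.644), and it was also lost without batch 2 (0.211) and without batch 6 (0.891). The ratio of the beta globins did not pass (9.24% of variance, p = 0.0609, adjusted p = 0.244), except without batch 4 (adjusted p = 0.0387). For the beta globin ratio the mean was 1.91 in males and 1.89 in females, and the male minus female difference with batch taken into account was -0.0287 (permutation p = 0.863).

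No sex difference passed the test for any of the 5 genes. The alpha globin ENSRNOG00000029886 was at 10.74, 12.08 and 14.56 in the lowest, median and highest male and at 10.09, 11.93 and 13.19 in females, so the ranges overlapped, with a female lowest and a male highest of all rats. With batch in the fit, the male minus female difference was 0.19 ± 0.17 (SE) for this gene, with a 95% interval of -0.14 to 0.52, that is 0.907-fold to 1.44-fold. It was 0.21 ± 0.18 for ENSRNOG00000047321, 0.28 ± 0.17 for ENSRNOG00000047098, 0.25 ± 0.21 for ENSRNOG00000058105 and 0.18 ± 0.16 for Alas2, and the adjusted p was 0.998 for all 5 (limma). Each of these differences was smaller than the residual SD between rats. Of all genes, 23 (0.131%) passed for sex. In this fit the intervals reached 1.6-fold at most, for ENSRNOG00000058105. With 20 expression components in the fit the difference turned to -0.23 and -0.27 for the alpha globins, -0.58 for ENSRNOG00000058105 and -0.85 for Alas2, again with none passing.

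The sex difference was also compared between batches. No gene of the table passed in limma for an interaction of sex and batch (0%), with 306 genes at an unadjusted p below 0.05, and 1 gene passed when the pseudocount was 8. The members had an adjusted p of 1.00.

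Globin levels differed between rat batches, with batch 6 lowest. In batch 6 the alpha globin ENSRNOG00000029886 was at 10.24, 11.43 and 12.24 in the lowest, median and highest rat, against 10.09, 12.15 and 13.52 in batch 3. In batch 4 it was at 10.83, 12.09 and 14.56, and in batch 2 at 10.45, 12.14 and 13.25. Batch 6 had the lowest median, but its rats overlapped with those of every other batch. The single rat of batch 5, which no fit used, was at 11.45.

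All 4 globins passed the limma F test across batches 2, 3, 4 and 6, with adjusted p = 0.0106 for ENSRNOG00000047321, 0.0114 for ENSRNOG00000029886, 0.0175 for ENSRNOG00000047098 and 0.000825 for ENSRNOG00000058105. Alas2 did not (0.362); its median was 5.32, 5.29, 5.21 and 4.85 in batches 2, 3, 4 and 6. Since 65.3% of all genes passed the same test, 4 of 5 is not a result particular to these genes. The F test rested on batch 6: without it no globin passed (adjusted p = 0.471 to 0.728), while 54.5% of all genes did. With 20 expression components in the fit no globin passed either (0.487 to 0.696), and 0.114% of all genes did.

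The pairs of batches show the size of the difference. Against batch 3, batch 6 differed by -0.85 ± 0.25 (SE) for ENSRNOG00000047321, -0.81 ± 0.24 for ENSRNOG00000029886, -0.83 ± 0.24 for ENSRNOG00000047098 and -1.27 ± 0.31 for ENSRNOG00000058105, all 4 passing (adjusted p = 0.000256 to 0.00269; 59.2% of all genes passed). With 20 expression components in the fit these differences turned to 0.92, 0.84, 0.92 and 0.76, none passing. The components took up most of the differences between batches, with 20 genes passing the F test against 11444 in the main fit. The turned signs are therefore not read as a higher level in batch 6. Against batch 4, where 6.04% of all genes passed, the alpha globins differed by -0.77 ± 0.24 and -0.72 ± 0.23 (adjusted p = 0.0416 and 0.0471) and ENSRNOG00000058105 by -1.03 ± 0.30 (0.0266), while ENSRNOG00000047098 was at -0.56 ± 0.23 (0.114). These calls were close to the threshold: those of the alpha globins were lost without male rat 35 of batch 4 (adjusted p = 0.0706 and 0.0804), and all 3 with the number of genes at 0 (0.139, 0.153 and 0.0903) or 20 components in the fit (0.733, 0.733 and 0.816).

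Against batch 2, where 42.4% of all genes passed, ENSRNOG00000058105 alone among the 5 passed, at -1.24 ± 0.34 (adjusted p = 0.00212). With column run in the fit, where 33% of all genes passed, its difference was -1.64 and no longer passed (0.0802). The alpha globins and ENSRNOG00000047098 then passed, at -1.56, -1.51 and -1.55 (0.0370, 0.0340 and 0.0297). With 20 components the difference of ENSRNOG00000058105 turned to 0.47 and did not pass. No member passed between batches 2 and 3, 2 and 4, or 3 and 4, while 7.44%, 33.9% and 54.9% of all genes did. The difference of batch 6 from batch 4 lies within column run 3, whereas all of batch 2 lies in run 1 and 7 and 12 of the 22 rats of batch 3 in runs 1 and 2, so batch and run cannot be fully told apart. With column run in the fit, the 4 globins still passed the F test, as did 35.3% of all genes.

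Globin levels moved with 1 sign of library quality. Between 296 and 1661 genes stood at 0 in a rat (median 540), and in 9 rats there were more than 1000. Its median was 459, 630, 634 and 467.5 in batches 2, 3, 4 and 6. Across 81 rats this number had r = 0.331 with ENSRNOG00000047321, 0.329 with ENSRNOG00000029886, 0.255 with ENSRNOG00000047098, 0.278 with ENSRNOG00000058105 and 0.053 with Alas2 (adjusted permutation p = 0.0160, 0.0160, 0.0538, 0.0396 and 0.633 over 10 relations). In ranks the relation was weaker, rho = 0.279, 0.270, 0.200, 0.212 and 0.017, and none passed (adjusted p = 0.0752 at the lowest). Without the 2 rats farthest from the median number, r was 0.397 for ENSRNOG00000047321. Within batches rho for this gene was 0.073, 0.314, 0.317 and -0.007 in batches 2, 3, 4 and 6.

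Of the 9 rats with more than 1000 genes at 0, 6 were above the median of ENSRNOG00000029886 and 4 among its 10 highest. With the number of genes at 0 in the fit, the batch difference of 3 globins no longer passed (adjusted p = 0.0589, 0.0610 and 0.0738). ENSRNOG00000058105 still did, as did 61.3% of all genes. Without those 9 rats the values were 0.0639, 0.0598 and 0.0918, and 64.7% of all genes passed. Library depth, recovered for 69 rats at 5.74 to 50.5 M reads assigned to genes (M, 1e+06), had no relation with a member that passed (adjusted p at least 0.134 over the rho values).

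The globins varied together with a large part of the transcriptome. With sex and batch in the fit, 41.5% of the other 17507 genes were associated with ENSRNOG00000047321, 39.8% with ENSRNOG00000029886, 33.1% with ENSRNOG00000047098 and 35.3% with ENSRNOG00000058105 (limma, adjusted p below 0.05). These genes rose with the globin about as often as they fell, with 3302 positive and 3662 negative for ENSRNOG00000029886. For ENSRNOG00000058105 the split was 2984 to 3197, and 2215 to 3612 when libraries were scaled to a common total. With Alas2, 1 gene (0.00571%) was associated, and 2005 had an unadjusted p below 0.05.

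Such breadth was common in these data. The median absolute correlation of a gene with all others, in residuals after sex and batch, was 0.217 for ENSRNOG00000047321, 0.210 for ENSRNOG00000029886, 0.191 for ENSRNOG00000047098 and 0.197 for ENSRNOG00000058105, against a median of 0.155 over all genes. These values lay at the 73.9th, 71.6th, 64.6th and 66.9th percentile of all genes, and Alas2, at 0.108, at the 23.5th. The leading component of the residuals, with 7.61% of the variance, had r = 0.63, 0.60, 0.52 and 0.56 with the globins and 0.21 with Alas2. It also had r = 0.343 with the number of genes at 0. Components 2 and 3 had more, r = 0.486 and 0.556. Their r with the globins was only 0.03 to 0.10 and -0.09 to -0.07.

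The genes associated with different globins were largely shared. Of 7261 genes associated with ENSRNOG00000047321, 94.3% were associated with ENSRNOG00000029886 in the same direction, 77.6% with ENSRNOG00000047098 and 80.8% with ENSRNOG00000058105. Of the 5800 associated with ENSRNOG00000047098, 84.0% were shared with the other beta globin, which is 78.9% of that gene's 6181. In all, 4855 genes passed for all 4 globins with the same sign, 2382 positive and 2473 negative. These fits share the same rats and correlated predictors, so the shares are descriptions of the same samples.

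The counts fell when leading components were in the fit and when single batches or male rat 35 of batch 4 were left out. The components were computed from the same values, members included, so they take up shared variation by construction. Leaving out batch 4 or 3 left 53 or 58 rats, and loss of power was not separated from dependence on a batch. With 20 expression components in the fit, as the study used for mapping, 3, 3, 2 and 0 genes were associated with the globins in the order above, and 1 with Alas2. Without batch 4, 770 genes were associated with ENSRNOG00000058105 and 4321, 3662 and 3976 with the other globins. Without batch 3, 1882 were associated with ENSRNOG00000047098. Leaving out male rat 35 of batch 4 alone took the count for ENSRNOG00000058105 from 6181 to 3640. With the alpha globin ENSRNOG00000029886 in the fit, 1628 genes were associated with Alas2 (679 positive, 949 negative), an alternative chosen after the data were seen.

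**Figure D4:**
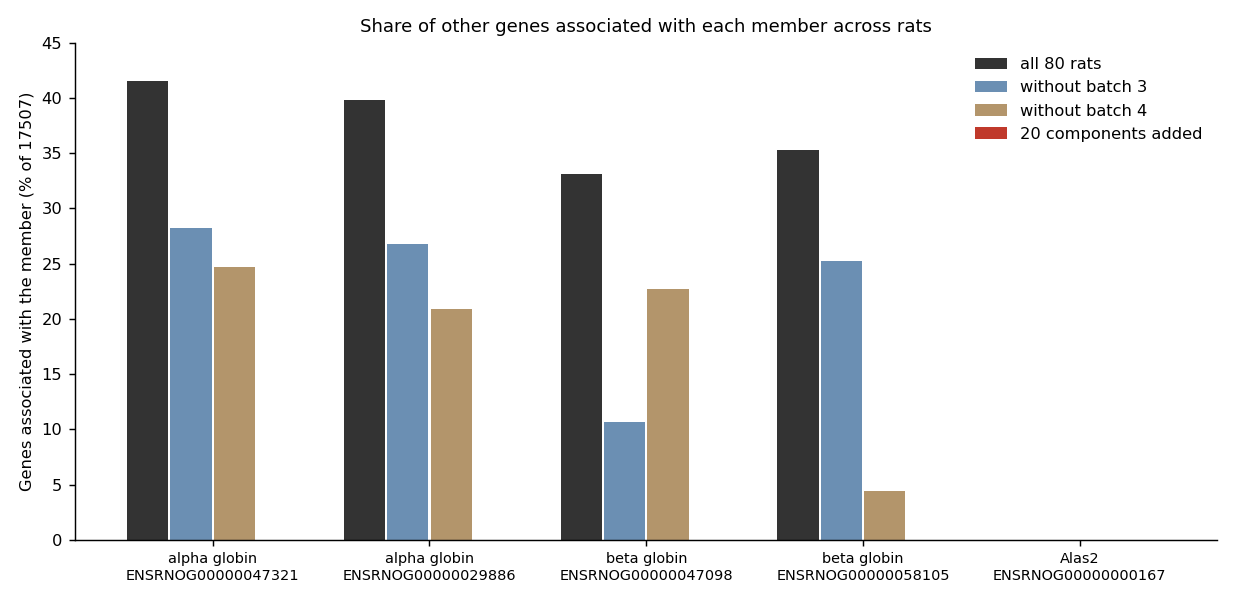
Share of the 17507 other genes associated with each gene at an adjusted p below 0.05 (y axis, %), for each of the 5 genes (x axis), with all 80 rats of the fits, without batch 3, without batch 4 and with 20 expression components added. The bars for all rats stand at 41.5%, 39.8%, 33.1% and 35.3% for the globins; the bars of Alas2 and of the fits with components are too low to be seen.

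The 1 gene associated with Alas2 was ENSRNOG00000061299, and it was also the gene most like 3 of the globins. Its name could not be matched to the identifier. It was at 8.32, 10.69 and 12.59 in the lowest, median and highest rat (10.57 ± 0.88 SD, n = 81). In residuals after sex and batch over 80 rats, its Spearman's rho was 0.95 with the beta globin ENSRNOG00000047098, 0.82 and 0.80 with the alpha globins ENSRNOG00000029886 and ENSRNOG00000047321 and 0.71 with Alas2. Among 15112 genes it ranked highest for each of these 4 genes, in all 8 alternatives run. With the beta globin ENSRNOG00000058105 rho was 0.52.

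The fitted slopes tell the same order. Each log2 unit of ENSRNOG00000047098 went with 1.05 ± 0.04 (SE) of ENSRNOG00000061299 (limma adjusted p = 8.04e-35), each unit of Alas2 with 0.75 ± 0.10 (8.55e-07) and each unit of ENSRNOG00000058105 with 0.45 ± 0.08 (5.75e-05). The within-rat difference of ENSRNOG00000061299 and ENSRNOG00000047098 was 1.59 ± 0.28, against 1.90 ± 0.74 for the pair of beta globins. No test was made of the difference between these SDs.

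**Figure D5:**
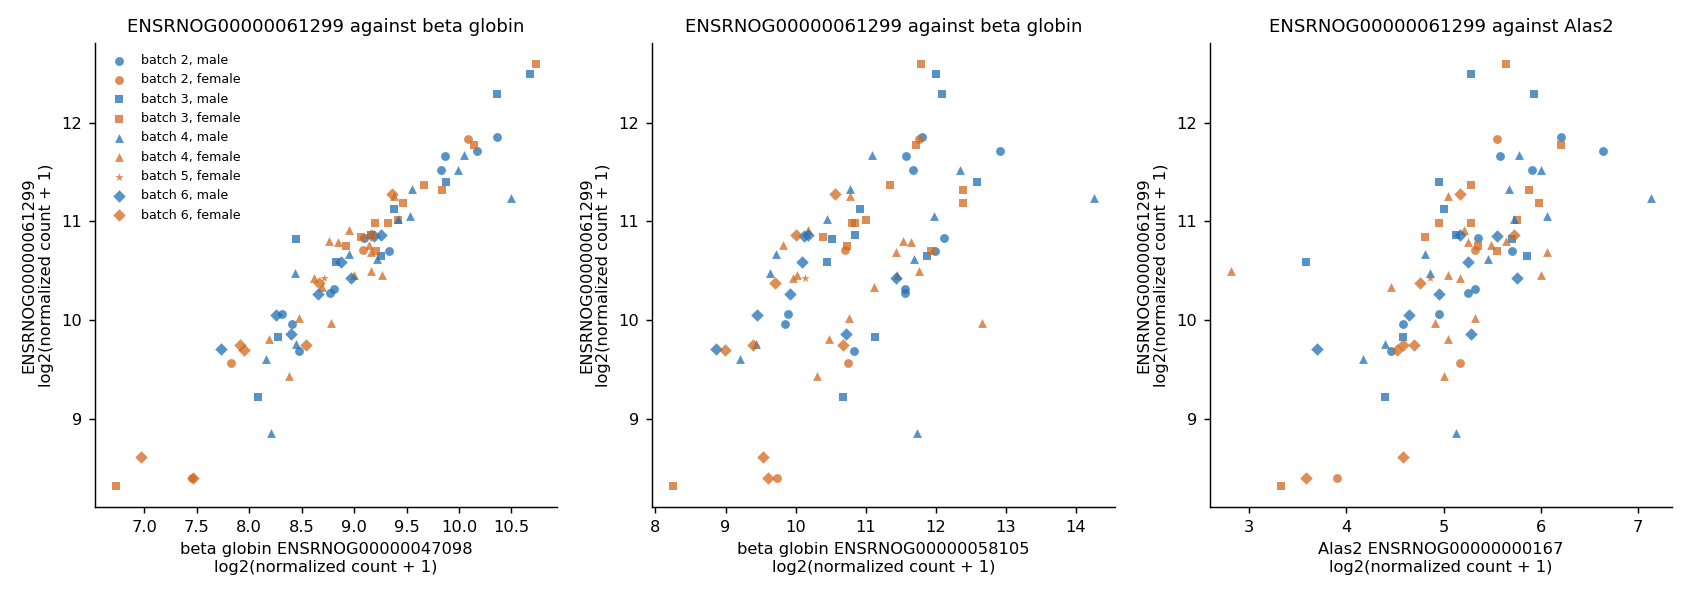
ENSRNOG00000061299 (y axis) against the beta globins ENSRNOG00000047098 and ENSRNOG00000058105 and against Alas2 (x axes), all as log2(normalized count + 1), with 1 point per rat, color for sex and shape for rat batch. The points form a narrow line with ENSRNOG00000047098 and a wide cloud with ENSRNOG00000058105, and rise with Alas2.

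The next genes were less close. ENSRNOG00000029512 had rho = 0.65 with ENSRNOG00000047321, and ENSRNOG00000005618 had 0.61 with ENSRNOG00000047098. Closest to ENSRNOG00000058105 was ENSRNOG00000013484, at rho = 0.62. ENSRNOG00000021079 had rho = 0.64, 0.61 and 0.61 with ENSRNOG00000047321, ENSRNOG00000029886 and ENSRNOG00000058105, and each log2 unit of ENSRNOG00000029886 went with 0.31 ± 0.04 of it (adjusted p = 1.95e-07). At the other end, ENSRNOG00000014509 had rho = -0.64 with ENSRNOG00000047321 and -0.60 with ENSRNOG00000029886, and its slope on the latter was -0.24 ± 0.03 (adjusted p = 2.34e-07). ENSRNOG00000021637 had rho = -0.63 and -0.60 with the alpha globins, and its slope on ENSRNOG00000029886 was -0.19 ± 0.03 (8.01e-07). The genes least like ENSRNOG00000058105 and Alas2 were others. ENSRNOG00000021079, ENSRNOG00000014509 and ENSRNOG00000021637 were not associated with Alas2 (limma adjusted p = 0.405, 0.405 and 0.414).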

How the data were processed

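RNA from the LHb of each rat was sequenced on an Illumina HiSeq as single-end reads. The authors trimmed reads with cutadapt, aligned them to the Ensembl rat transcriptome (Rnor_6.0) with RSEM, applied an upper quartile adjustment with DESeq2, removed low genes and 6 samples, and exchanged the labels of 1 pair of rats. The deposited values are log2 of the rounded normalized count plus 1, so log2 differences understate the change of low genes. Genes were tested with limma 3.58.1 (R 4.3.3; lmFit, eBayes with an intensity trend) on 80 rats of batches 2, 3, 4 and 6, with sex and batch as terms and Benjamini-Hochberg adjustment over all genes at a threshold of 0.05. Correlations and ratios were tested by 2-sided permutation tests with 100000 resamples; ratios were permuted within batch for sex and within sex for batch. Library depth was read from the spacing of low values, which resolved 69 rats at 5.74 to 50.5 M reads (M, 1e+06), and intervals of counting error cover counting only.

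The limma step recovered 84.0% of 200 simulated sex differences of 0.5 over 17512 genes. The 200 were drawn from genes outside the members with a mean log2 of at least 3, each with its own residual SD. The median residual SD was 0.275 over all genes, against 0.73 to 0.97 for the members, so this rate does not apply to the members. Each rat is 1 library, so p-values rest on the spread between libraries. Differences between animals and those of dissection or library preparation cannot be told apart in it. The members and lists were chosen with earlier results of these data known. For each member the 5 genes most like it and the 2 least like it were found by Spearman correlation of residuals. Only genes with a mean log2 of at least 3 entered. Slopes are given for 2 genes of each direction over all members. The reason is that the deposited table and the reference tables used here do not pair the identifiers with names. The lists of blood, vessel and habenula markers, of heme enzymes and of other globins were not used for the same reason. Alternatives covered the pseudocount (8), a filter, scaling, rank transformation, the trend, covariates and left-out batches or rats. Alternatives without the rats with over 1000 genes at 0 or male rat 35 of batch 4, those of the ratios and those with a member as covariate were chosen after seeing the data, as were the gaps of the beta globin ratio.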

Additional observations from a re-analysis of the deposited data

Results flagged for a closer look

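In groups of 4 to 10 rats of 1 sex and batch, values were examined for a rat far from the others by Dixon's test. The 40 sets were 10 measures in 4 groups, and measures of the same rats are not independent. In all, 1 set stood out. Chance alone gives about 1 in 20 sets, so 1 of 40 is not more than chance gives. The alpha globin ratio, ENSRNOG00000029886 minus ENSRNOG00000047321, was 0.95 in male rat 10 of batch 3 against 1.14 for the nearest of the 10 males of that batch. The gap was 0.502 of the group's range. The same rat had 1491 genes listed at 0, against a median of 540 over all rats. Female rat 32 of batch 3 had the lowest alpha globin ratio of all rats, 0.80, with 534 genes at 0. Her group of 12 females was too large to be examined.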

How the results depend on the processing

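No paired analysis was possible because numbers given in record order only name the rats. All 140 recomputed values of Pearson's r between members stayed positive and past the threshold; Spearman's rho of ENSRNOG00000058105 with Alas2 did not pass within column run 2 (adjusted p = 0.0727). No alternative called a member for sex or for the interaction. The values below changed their call, count or sign; the cause was not tested except where the alternative removes rats or variance by construction.

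With 20 expression components in the fit, which take up most of the differences between batches, the genes called fell to 7 for sex and 20 for batch, and those associated with the globins to 3 (ENSRNOG00000047321), 3 (ENSRNOG00000029886), 2 (ENSRNOG00000047098) and 0 (ENSRNOG00000058105). The sex difference turned to -0.23 and -0.27 for the alpha globins, -0.58 for ENSRNOG00000058105 and -0.85 for Alas2, none called. The batch test gave adjusted p = 0.487, 0.514, 0.523 and 0.696 for the globins. Batch 6 minus batch 2 turned to 0.67, 0.69, 0.87, 0.47 and 1.36 for the 5 genes in the order of the opening, and batch 6 minus batch 3 to 0.92, 0.84, 0.92, 0.76 and 1.30. With these components removed, the residual SD of the globins was 0.654, 0.630, 0.669 and 0.811.

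With column run in the fit, 6180 genes were called for batch, and batch 6 minus batch 2 of ENSRNOG00000058105 was -1.64 with adjusted p = 0.0802. A pseudocount of 8 called 1 gene for the interaction and gave Alas2 a residual SD of 0.583. The batch test of the globins lost its call with the number of genes at 0 in the fit (0.0589, 0.0610 and 0.0738, ENSRNOG00000058105 excepted), without the 9 rats with the most genes at 0 (0.0639, 0.0598 and 0.0918, again excepted) and without batch 6 (0.717, 0.728, 0.471 and 0.726). Without batch 4 the associated genes numbered 4321, 3662 and 770 for the alpha globins and ENSRNOG00000058105, and without batch 3 they numbered 1882 for ENSRNOG00000047098. Without male rat 35 of batch 4, 3640 genes were associated with ENSRNOG00000058105, and the alpha globins no longer differed between batches 6 and 4 (adjusted p = 0.0706 and 0.0804). With ENSRNOG00000029886 in the fit, 1628 genes were associated with Alas2.

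Batch explained 17.1% of the variance of the beta globin ratio without batch 4, now past the threshold. For ENSRNOG00000058105 minus ENSRNOG00000029886 it explained 11.4% without batch 2, 6.73% without batch 6 and 17.2% when permuted within column runs, no longer past it. The male minus female difference with batch taken into account turned from -0.0287 to 0.0917 for the beta globin ratio without batch 4, and from 0.0619 to -0.011 for ENSRNOG00000058105 minus ENSRNOG00000029886 without batch 3. Alas2, with a median of 37.4 reads, is the gene whose precision depth limits most.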
